A study of Mus musculus with 8 samples.

Results

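The enzymes described here are those that make drugs, food chemicals and the body's own steroids and lipids soluble enough to leave the cell. They were taken by gene symbol as the cytochromes P450 (Cyp, without the sterol enzyme Cyp51), the glutathione S-transferases (Gst), the UDP-glucuronosyltransferases (Ugt) and the cytosolic sulfotransferases (Sult). Among probe sets annotated with a single gene, the one with the highest mean over the arrays stood for its gene. This gave 84 of the 16645 genes measured, 51 Cyp, 17 Gst, 9 Ugt and 7 Sult, and 1 of them (Gstm3) had a second probe set. By their symbols, Cyp2d37-ps and Cyp4f41-ps among the 84 are pseudogenes. A further 16 probe sets pooled several names of these families, among them the shared Ugt1a probe set, and are not described.

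The tissue came from the far end of the colon in 5-week-old males of BALB/c, an inbred mouse strain. In the 4 AA mice appendicitis had been induced surgically at the caecal lymphoid follicles and those follicles were removed 1 week later, and the 4 SS mice, in their place, had sham surgery on both occasions. All animals therefore had repeated laparotomies and anaesthesia. Each sample was hybridised to its own Affymetrix MoGene array, and the labels put AA and SS replicates 1 and 2 in batch 1 and replicates 3 and 4 in batch 2. The series calls the samples of a group biological replicates but names no animals.

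In a gut cell these enzymes work in sequence. Cytochromes P450 insert an oxygen atom, and the transferases then attach glutathione, glucuronic acid or sulfate, which transporters carry out of the cell. Several Cyp enzymes act on fatty acids, steroids, bile acids or retinoids rather than on drugs. Many of these genes are switched by ligand-activated receptors, such as the aryl hydrocarbon receptor and the pregnane X receptor, or by NRF2. NRF2 acts in the response to oxidative stress.

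All values are the authors' log2 expression values, on which a step of 1 is a doubling of signal. Differences are given as AA mean less SS mean, with the standard error (SE) from limma, a linear model fitted to all genes with batch as a term. The deposited values had the same mean in batch 1 and batch 2 for every probe set, to within 0.000060. An array with an extreme value therefore shifts the other 3 arrays of its batch the opposite way. The arrays were checked against the labelled tissue: all 14 colon epithelium markers averaged 8.88 or more. Of 6 hepatocyte markers, albumin averaged 5.88, and Apoa1, Fgb and Ahsg averaged 6.57, 5.26 and 5.23. Tat and Ttr, on the same list, averaged 9.70 and 8.48, so not all hepatocyte markers were low. SS replicate 1 held the lowest value of 25.5% of all genes, more than any other array. Adipocyte marker genes averaged 6.92 to 7.85 in the AA arrays and 7.31 to 8.93 in the SS arrays, with SS replicate 1 highest. In such bulk samples a smaller share of a cell type and less RNA per cell cannot be told apart.

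No gene of the 4 families passed the threshold of an adjusted p of 0.05, and neither did any of the 16645 genes (0.00% called). The smallest adjusted p among the 84 was 0.418. At an unadjusted p under 0.05 limma gave 1 member higher in AA (Sult1d1) and 2 lower (Cyp2f2 and Cyp2c37). By that rule 5.67% of all genes were higher and 2.29% lower, 7.97% in either direction, and the members' shares lay near or below this background. Without AA replicate 3 and SS replicate 1, a setting chosen after the data were seen, the lower count was 7, or 8.33% of members, against 4.07% of all genes. The members' differences had a median of -0.02, against 0.01 over all genes, with 37 higher and 47 lower in AA. Their sizes had a median of 0.12, against 0.09 over all genes, but their SEs were larger too, with a median of 0.15, against 0.11.

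By family, the median difference was -0.03 over Cyp genes, -0.07 over Gst genes, 0.0014 over Ugt genes and 0.10 over Sult genes. The counts of higher members were 21 of 51 Cyp, 5 of 17 Gst, 5 of 9 Ugt and 6 of 7 Sult, beside 52.2% of all genes. Within batches the median was -0.03 and -0.03 for Cyp, -0.06 and -0.17 for Gst, 0.07 and -0.09 for Ugt, and 0.37 and 0.04 for Sult, with batch 1 given first. The Ugt median thus had opposite signs in the 2 batches. A member's difference had the same sign in both batches for 41 of the 84.

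**Figure D1:**
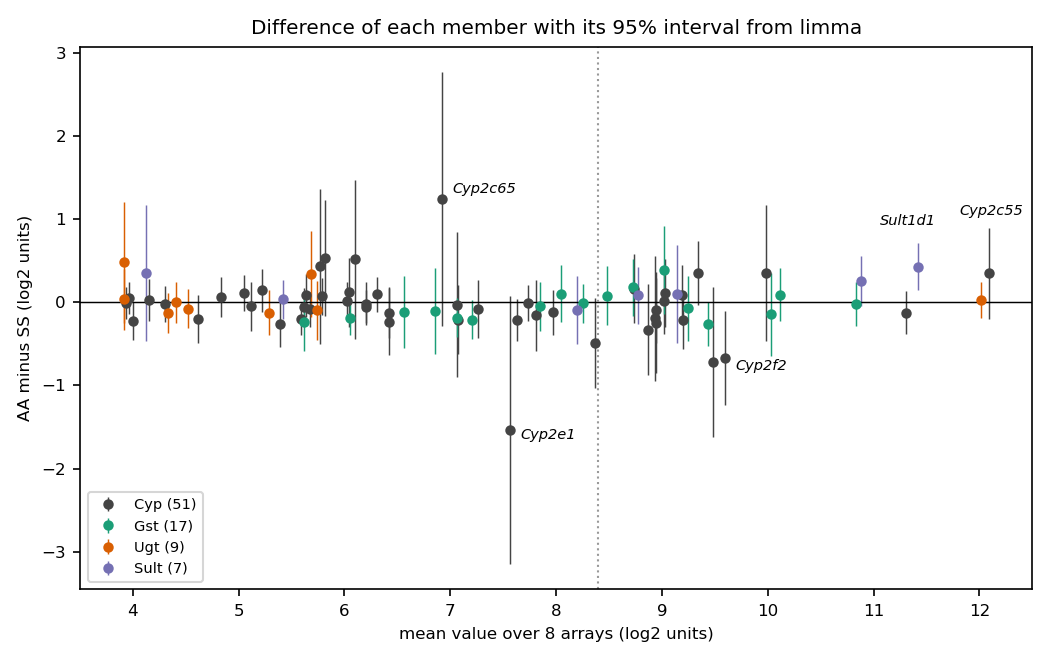
AA minus SS difference (log2 units) of each of the 84 genes against its mean over 8 arrays (log2 units), with the 95% interval from limma, coloured by family. Most intervals cross the zero line, the widest belong to Cyp2e1 (-3.15 to 0.07) and Cyp2c65 (-0.29 to 2.77), and the dotted line is the level of 8.40 above which a gene is called well expressed.

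A gene was called well expressed in distal colon when its mean over the 8 arrays exceeded 8.40, the upper quartile of all tested probe sets. By this rule 28 of the 84 were well expressed, or 33.3%, against 24.0% of all genes. The last gene inside was Gstm2, at 8.48, and the first outside was Cyp2d13, at 8.37. Probe sets differ in how brightly they report the same amount of RNA, so the levels sort genes into bright and dim but give no order between genes. The other 56 genes included 44 at or below 7.13, the median probe set. Some liver-typical enzymes were among these, such as Cyp2c29 at 3.93, Ugt2b1 at 4.41 and Cyp8b1, a bile acid enzyme, at 5.68.

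The well expressed set held 15 Cyp genes, 8 Gst genes, 4 Sult genes and 1 Ugt gene. The Cyp genes were Cyp2c55, Cyp2d34, Cyp4f14, Cyp2f2, Cyp2d12, Cyp3a13, Cyp2s1, Cyp2d22, Cyp2d9, Cyp4f16, Cyp4f13, Cyp2c68, Cyp2d10, Cyp27a1 and Cyp2j6. The Gst genes were Gstp1, Gsto1, Gsta4, Gstm1, Gstt3, Gstk1, Gstm5 and Gstm2, the Sult genes Sult1d1, Sult1b1, Sult1a1 and Sult2b1, and the Ugt gene Ugt2b34. Of these 28, 16 were higher and 12 lower in AA, and the median difference was 0.05, against 0.03 over all well expressed genes. It was 0.11 in batch 1 and -0.09 in batch 2, against 0.13 and -0.07 over all well expressed genes.

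**Figure D2:**
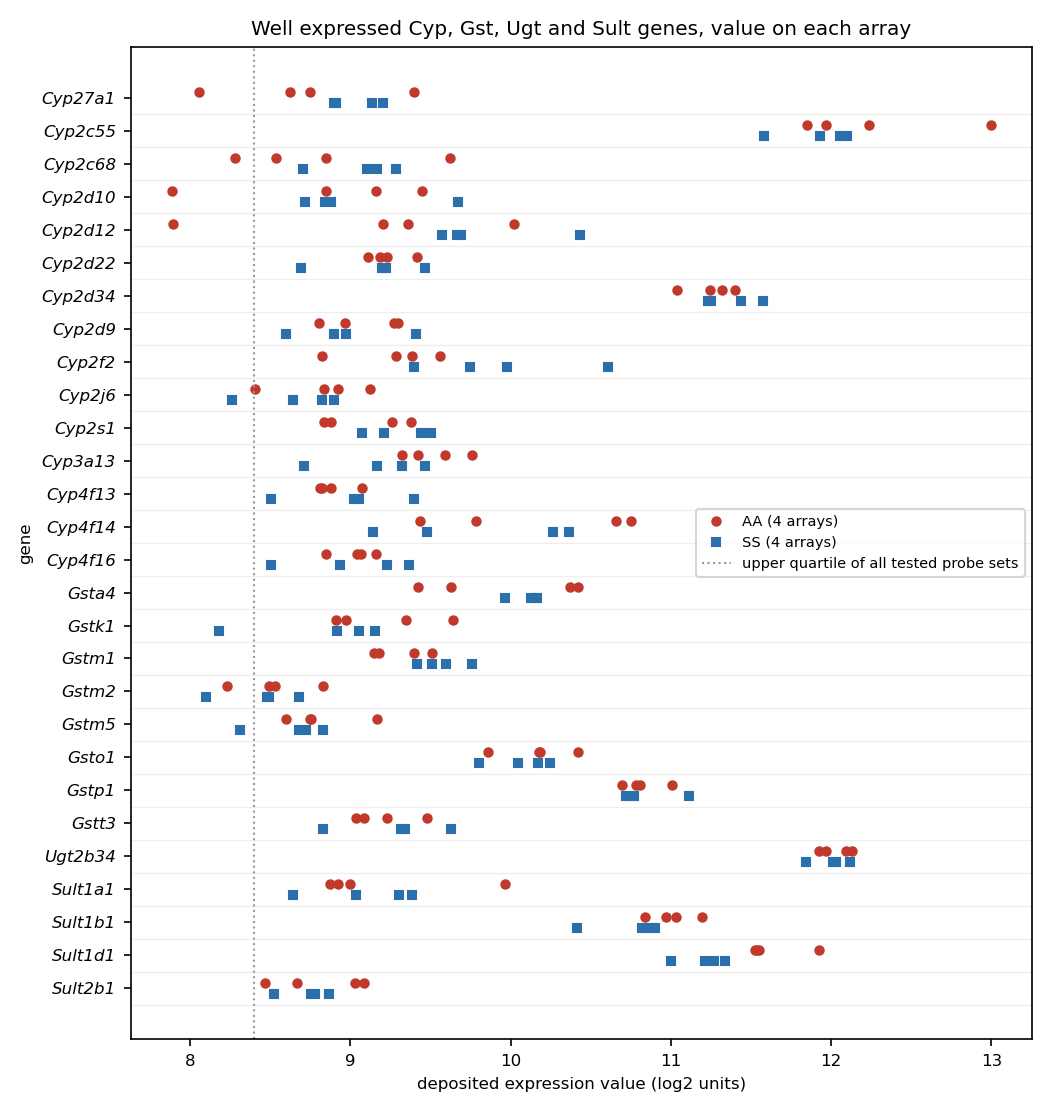
Deposited value (log2 units) of each of the 28 well expressed genes on the 4 AA arrays (circles) and the 4 SS arrays (squares), by family from Cyp at the top to Sult at the bottom. Sult1d1 is the 1 gene in which every AA array, from 11.52 upward, lies to the right of every SS array, which reach 11.34.

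Among the oxidising enzymes, Cyp2c55, which acts on arachidonic and linoleic acid in mouse intestine, was bright on every array. It stood at 11.85, 13.00, 11.97 and 12.24 in AA replicates 1 to 4, against 11.58, 11.93, 12.05 and 12.10 in SS replicates 1 to 4. AA replicate 2 was the high array and the groups overlapped. The difference was 0.35 ± 0.24 (SE; limma adjusted p = 0.768), and 0.05 without AA replicate 2.

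Cyp2c65, the gene next to Cyp2c55 in the RefSeq order, was picked out after its values were seen, for the widest range of the 84 (4.30). Its values were 6.64, 9.75, 6.92 and 6.85 in AA replicates 1 to 4 and 5.45, 5.84, 6.80 and 7.11 in SS replicates 1 to 4. AA replicate 2 thus lay far above every other array, and the other 3 AA arrays fell inside the range of the SS arrays. The difference of 1.24 ± 0.68 (SE; limma adjusted p = 0.699) was 2.55 in batch 1, 0.36 without AA replicate 2, and -0.07 in batch 2. Cyp4b1, which oxidises fatty acids and aromatic amines, had the same high array. It stood at 7.77 in AA replicate 2, against 5.51 to 6.15 in the other AA arrays and 5.56 to 6.23 in the SS arrays, and its difference of 0.52 ± 0.42 (SE) was -0.05 without that array.

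Fabp2, an intestinal fatty acid carrier on the list of colon epithelium markers, moved with this array. It stood at 7.76, 12.68, 8.21 and 10.05 in AA replicates 1 to 4, against 6.72, 8.36, 9.13 and 8.12 in SS replicates 1 to 4. Over the whole list of 14 epithelium markers the mean was 12.01 to 12.44 in AA and 11.73 to 12.03 in SS, highest in AA replicate 2 and lowest in SS replicate 1. Of the 14, 11 were higher in AA, 2 of them at an unadjusted limma p under 0.05, beside 52.2% and 5.67% of all genes. The part of these markers in the Cyp2c65, Cyp4b1 and Cyp2c55 values was not tested.

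The start sites of Cyp2c55 and Cyp2c65 are shown because these neighbours shared their highest array. The sequences are those of RefSeq for the C57BL/6J genome (build GRCm38.p6), run 5′ to 3′ along the gene, and cover 250 bases before to 50 bases after the annotated start. Capitals mark matches to 4 motifs searched: GCGTG (the core bound by the aryl hydrocarbon receptor), TGACNNNGC (the core bound by NRF2) and CAAAGTCCA (the motif of HNF4, a factor of gut and liver epithelium), each on both strands, and the TATA box TATAAA on the gene's strand only. The 2 windows lie at chr19:39006769-39007068 and chr19:39060756-39061055, both on the plus strand.
Cyp2c55: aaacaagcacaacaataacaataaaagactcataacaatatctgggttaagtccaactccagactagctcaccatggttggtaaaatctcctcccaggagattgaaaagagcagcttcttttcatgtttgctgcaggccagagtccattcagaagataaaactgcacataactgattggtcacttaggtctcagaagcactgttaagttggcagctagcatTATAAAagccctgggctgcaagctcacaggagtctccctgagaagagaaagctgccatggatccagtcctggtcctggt
Cyp2c65: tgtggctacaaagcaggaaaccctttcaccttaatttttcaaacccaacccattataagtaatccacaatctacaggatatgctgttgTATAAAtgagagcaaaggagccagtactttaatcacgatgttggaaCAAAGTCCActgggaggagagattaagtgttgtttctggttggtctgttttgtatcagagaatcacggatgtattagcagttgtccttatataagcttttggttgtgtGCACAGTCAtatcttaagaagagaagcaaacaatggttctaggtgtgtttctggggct

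Counted from the start, Cyp2c55 held a TATA box at -29. Cyp2c65 held CAAAGTCCA at -116, a TGACNNNGC match on the opposite strand at -8 and a TATA box at -162. The members with a promoter in the table numbered 69. Of these, 6 held CAAAGTCCA (Cyp2c65, Cyp2c67, Cyp2c68, Cyp2c70, Cyp8b1 and Sult1b1), or 8.70%, against 0.555% of all 27025 genes in the table. GCGTG was held by 18 of the 69, or 26.1%, against 35.2% of all genes, and TGACNNNGC by 10, or 14.5%, against 13.99%. TATAAA was held by 11, or 15.9%, against 9.77%. Neighbouring members share ancestry, so their matches are not independent, and a match is a run of letters, not a site of binding.

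The Cyp2d genes are a cluster of near copies, and their probes may read each other's transcripts. All 9 measured genes, the pseudogene Cyp2d37-ps among them, lay above the median probe set and 5 were well expressed. Of the 9, 2 were higher and 7 lower in AA, Cyp2d37-ps (-0.21) being 1 of the lower, and the median difference was -0.16. Cyp2d12, picked out after its values were seen, ranged over 2.54. It stood at 10.02, 7.89, 9.36 and 9.20 in AA replicates 1 to 4 and 9.57, 10.43, 9.69 and 9.66 in SS replicates 1 to 4. AA replicate 2 was the low array, and AA replicate 1 lay among the SS arrays. Its difference of -0.72 ± 0.40 (SE; limma adjusted p = 0.700) was -0.23 without AA replicate 2. Cyp2d34 averaged 11.25 ± 0.15 (SD, n = 4) in AA, against 11.37 ± 0.16 (SD, n = 4) in SS, and the gap was smaller than either SD.

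Cyp2f2, known for activating naphthalene in mouse lung, had the smallest p of the Cyp genes. Its values were 9.56, 8.82, 9.38 and 9.28 in AA replicates 1 to 4, against 9.40, 10.61, 9.98 and 9.75 in SS replicates 1 to 4. AA replicate 1 lay above SS replicate 1, so the groups overlapped there, and the 3 other SS arrays were above all AA arrays. The difference was -0.67 ± 0.25 (SE), or 0.629 of the SS level, with an unadjusted p of 0.0260 and an adjusted p of 0.555 in limma. It was -0.81 in batch 1 and -0.53 in batch 2, and ran from -0.88 to -0.40 when single arrays were left out, the smallest without SS replicate 2.

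Cyp2e1, which oxidises ethanol and small solvents, had the largest lower difference, -1.54 ± 0.71 (SE; limma adjusted p = 0.640). It stood at 6.98, 5.73, 8.66 and 5.80 in AA replicates 1 to 4, against 9.85, 7.68, 8.42 and 7.37 in SS replicates 1 to 4. Its highest array was SS replicate 1, and AA replicate 3 was above 3 of the SS arrays. The adipocyte hormone gene Adipoq stood at 6.49, 5.51, 8.34 and 5.80 in the AA arrays and 10.04, 7.16, 8.10 and 6.96 in the SS arrays in the same order. All 12 measured adipocyte markers were lower in AA, though 0 of them had an unadjusted limma p under 0.05. Their median difference was -0.53, and they ran from -1.53 to -0.0054 (Pparg, in effect no difference). Of all genes, 7948 of 16645 were lower in AA and 2.29% were lower at that p. The part of adipose tissue in the Cyp2e1 difference was not tested. Without SS replicate 1 the Cyp2e1 difference was -0.93. AA replicate 3 and SS replicate 1 were the highest arrays of their groups. Without both, a setting chosen after the data were seen, the difference was -1.71 (limma adjusted p = 0.268). It was -2.41 in batch 1 and -0.67 in batch 2.

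The promoters of Cyp2f2 and Cyp2e1 are printed because these genes had the smallest p and the largest lower difference of the Cyp genes. They are taken and marked as above and lie on the plus strand at chr7:27119705-27120004 and chr7:140763569-140763868. Cyp2f2 held none of the 4 motifs, and Cyp2e1 held a TATA box.
Cyp2f2: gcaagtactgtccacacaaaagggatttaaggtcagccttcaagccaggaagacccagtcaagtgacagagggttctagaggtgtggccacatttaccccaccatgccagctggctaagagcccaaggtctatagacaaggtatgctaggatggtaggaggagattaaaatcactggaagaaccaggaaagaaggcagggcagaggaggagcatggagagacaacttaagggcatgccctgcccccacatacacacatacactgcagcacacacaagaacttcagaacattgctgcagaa
Cyp2e1: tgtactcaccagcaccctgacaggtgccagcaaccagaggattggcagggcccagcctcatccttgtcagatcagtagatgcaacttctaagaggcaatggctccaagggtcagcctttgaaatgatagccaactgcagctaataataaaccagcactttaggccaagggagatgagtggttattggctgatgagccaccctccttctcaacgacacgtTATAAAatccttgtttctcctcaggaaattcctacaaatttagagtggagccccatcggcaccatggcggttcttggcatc

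Other named Cyp genes were dim or had groups that overlapped. Cyp2c37, with the second smallest Cyp p (0.0480, adjusted p = 0.614 in limma), averaged 5.49 ± 0.08 (SD, n = 4) in AA, against 5.69 ± 0.07 (SD, n = 4) in SS. Its difference was -0.20 ± 0.09 (SE), at a level that only 18.1% of tested probe sets lay below, and AA replicate 3 was above SS replicate 4, the lowest SS array at 5.59. Cyp4a12a, which hydroxylates arachidonic acid in mouse kidney, was dimmer still, at 3.89 ± 0.12 (SD, n = 4) in AA, against 4.12 ± 0.13 (SD, n = 4) in SS. Cyp3a13, an intestinal enzyme of the drug-oxidising Cyp3a branch, was bright. It averaged 9.52 ± 0.19 (SD, n = 4) in AA, against 9.17 ± 0.33 (SD, n = 4) in SS, a difference of 0.36 ± 0.17 (SE; limma adjusted p = 0.651) that was 0.66 in batch 1 and 0.06 in batch 2. Cyp4f14, which inactivates the neutrophil attractant leukotriene B4, varied widely within both groups. Its values ran from 9.44 to 10.75 in AA and from 9.14 to 10.36 in SS.

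The Cyp genes of steroid and sterol metabolism showed no common direction. Cyp27a1, which starts the side-chain oxidation of cholesterol, averaged 8.71 ± 0.55 (SD, n = 4) in AA, against 9.04 ± 0.16 (SD, n = 4) in SS, with AA replicate 2 lowest at 8.06. Cyp7b1, an oxysterol hydroxylase, stood at 5.54 to 7.08 in AA and 5.25 to 5.92 in SS, and AA replicate 3 was the high array. Cyp39a1, Cyp46a1, Cyp8b1, Cyp11b1 and Cyp11b2 differed by -0.12 to 0.06.

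The sulfotransferases held the smallest p of the 84. Sult1d1, which transfers sulfate to catecholamines and other phenols in the mouse, stood at 11.54, 11.93, 11.55 and 11.52 in AA replicates 1 to 4. In SS replicates 1 to 4 it stood at 11.00, 11.21, 11.34 and 11.27. The 4 AA arrays were thus all above the 4 SS arrays, and AA replicate 2 was highest. Of the 84 members 1 separated in this direction and 0 in the other, against 4.33% and 1.84% of all genes, or 6.18% in either direction. The difference was 0.43 ± 0.12 (SE), a 1.35-fold higher signal, with an unadjusted p of 0.00652 and an adjusted p of 0.418 in limma. It was 0.63 in batch 1, 0.23 in batch 2 and 0.31 without AA replicate 2.

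The Sult1d1 promoter is shown because it alone separated the groups among the probe sets chosen. It lies at chr5:87568957-87569256 on the minus strand and is taken and marked as above. It held GCGTG on the opposite strand, read here as CACGC, at -47 from the start.
Sult1d1: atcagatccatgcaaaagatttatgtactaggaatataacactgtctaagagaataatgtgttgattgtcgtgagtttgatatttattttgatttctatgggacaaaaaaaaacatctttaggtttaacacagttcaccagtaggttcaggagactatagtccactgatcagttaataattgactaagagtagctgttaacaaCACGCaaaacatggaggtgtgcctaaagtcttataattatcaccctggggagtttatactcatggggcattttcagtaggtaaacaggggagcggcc

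Sult1d1 lies between Sult1b1 and Sult1e1 in the RefSeq order, and these neighbours were read beside it. Sult1b1, which acts on thyroid hormones and phenols, stood at 11.20, 11.03, 10.84 and 10.97 in AA replicates 1 to 4 and 10.41, 10.88, 10.90 and 10.82 in SS replicates 1 to 4. SS replicate 1 was low, and AA replicate 3 lay below 2 of the SS arrays. The difference of 0.26 ± 0.13 (SE; limma adjusted p = 0.679) was 0.12 without SS replicate 1 and 0.04 in batch 2. Sult1e1, the estrogen sulfotransferase, was dim. It averaged 4.30 ± 0.80 (SD, n = 4) in AA, against 3.94 ± 0.36 (SD, n = 4) in SS, with AA replicate 3 at 5.43.

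Sult1a1, the main phenol sulfotransferase, was high in AA replicate 2, at 9.96, against 8.88 to 8.997 in the other AA arrays and 8.64 to 9.39 in the SS arrays. Its difference was 0.10 ± 0.26 (SE), and it was 0.60 in batch 1 and -0.41 in batch 2. Sult2b1, which sulfates cholesterol and other hydroxysteroids, averaged 8.81 ± 0.29 (SD, n = 4) in AA, against 8.73 ± 0.15 (SD, n = 4) in SS. Sult1c2 and Sult5a1 differed by -0.09 and 0.04.

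**Figure D3:**
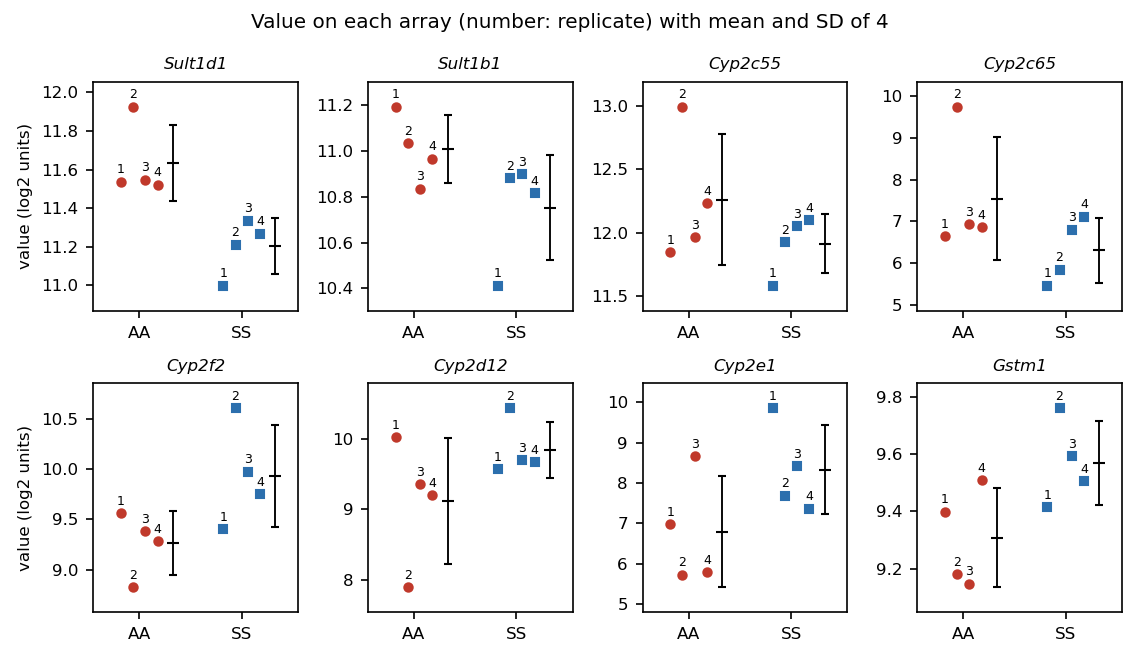
Deposited value (log2 units; each panel has its own axis range, which does not start at zero) of 8 genes on each array, AA left and SS right, numbered by replicate, with the mean and SD of 4 beside the points. Sult1d1 alone separates the groups, while AA replicate 2 is the highest AA array for Cyp2c55 (13.00) and Cyp2c65 (9.75) and the lowest for Cyp2f2 (8.82), Cyp2d12 (7.89) and Cyp2e1 (5.73).

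Of the glucuronosyltransferases with a probe set of their own, Ugt2b34 was the 1 gene well expressed. It stood at 11.97, 12.13, 12.09 and 11.92 in AA replicates 1 to 4, against 11.84, 12.12, 12.03 and 12.01 in SS replicates 1 to 4. The groups overlapped throughout, and its range of 0.28 was the narrowest of the well expressed members. The difference was 0.03 ± 0.10 (SE), with a 95% interval of -0.19 to 0.24. The 8 other Ugt genes lay between 3.91 and 5.74, below the median probe set, where a difference is hard to read. Ugt2b5 stood at 5.20 in AA replicate 2, against 3.56 to 4.03 in the other AA arrays and 3.43 to 4.03 in the SS arrays. Ugt2b35, Ugt2b37 and Ugt2a3 differed by -0.10 ± 0.16, -0.12 ± 0.12 and -0.13 ± 0.10 (SE). Ugt8a, which makes the galactolipids of myelin and is no drug enzyme, differed by 0.34 ± 0.23 (SE), and by 0.06 without AA replicate 2.

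The glutathione S-transferases had 12 of 17 members lower in AA, though 0 had an unadjusted p under 0.05 in limma and 0 an adjusted one. Of all genes, 7948 of 16645 were lower in AA, 7.97% had that unadjusted p in either direction and 0.00% the adjusted one. In the mu class, 5 of 7 were lower, and the median difference was -0.18. Gstm1, a broad conjugator of electrophiles, stood at 9.40, 9.18, 9.15 and 9.51 in AA replicates 1 to 4 and 9.42, 9.76, 9.59 and 9.51 in SS replicates 1 to 4. AA replicates 1 to 3 were below all SS arrays, the first narrowly, and AA replicate 4 lay among them. Its difference was -0.26 ± 0.12 (SE; unadjusted p = 0.0541, adjusted p = 0.633 in limma), and -0.30 and -0.22 in batches 1 and 2.

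Gstm3 averaged 7.10 ± 0.16 (SD, n = 4) in AA, against 7.31 ± 0.08 (SD, n = 4) in SS, a difference of -0.21 ± 0.10 (SE). Its second, dimmer probe set had all AA arrays, 6.44 to 6.78, below all SS arrays, 6.79 to 7.02, and differed by -0.26 ± 0.11 (SE; unadjusted p = 0.0398, adjusted p = 0.597 in limma). The mu class genes lie side by side and resemble each other, so probes may be shared. Gstm7 differed by -0.18 ± 0.10 (SE), and Gstm5 and Gstm2, by contrast, by 0.18 ± 0.15 (SE) and 0.08 ± 0.16 (SE).

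Among the other bright Gst genes, Gstp1 averaged 10.82 ± 0.13 (SD, n = 4) in AA, against 10.84 ± 0.18 (SD, n = 4) in SS (95% interval of the difference -0.29 to 0.24), and AA replicate 4 and SS replicate 2 were its high arrays. Gsto1, which reduces thiol adducts and dehydroascorbate, averaged 10.16 ± 0.23 (SD, n = 4) in AA, against 10.07 ± 0.19 (SD, n = 4) in SS. Gsta4, which removes the lipid aldehyde hydroxynonenal, had a much wider spread in AA, 9.96 ± 0.51 (SD, n = 4), than in SS, 10.10 ± 0.10 (SD, n = 4). Gstk1, of mitochondria and peroxisomes, had the largest difference of the 17 Gst genes, 0.39 ± 0.24 (SE; limma adjusted p = 0.721), and it was 0.94 in batch 1 and -0.16 in batch 2. Gsto2 was dim, at 5.96 ± 0.10 (SD, n = 4) in AA, against 6.14 ± 0.10 (SD, n = 4) in SS, with an unadjusted p of 0.0821 in limma.

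Single arrays carried much of the members' variation. The first principal component of the 84 genes, not scaled to equal variance, held 52.7% of their variance. It placed AA replicate 2 at 5.32, with the other arrays from -2.99 to 1.11. Without scaling, genes of wide range count for more, such as Cyp2c65 (range 4.30) and Cyp2e1 (4.12), against a median range of 0.67 over the 84. In AA replicate 2, 17 members had their highest value and 22 their lowest, or 20.2% and 26.2%, against 15.1% and 13.2% of all genes. SS replicate 1 held the lowest value of 17 of the 28 well expressed members, or 60.7%, and 48.0% of all well expressed genes were lowest there too. SS replicate 2 held the highest value of 12 of the 28, or 42.9%, against 12.8% of all well expressed genes. These 12 were Cyp2d9, Cyp2d10, Cyp2d12, Cyp2d22, Cyp2d34, Cyp2f2, Cyp2s1, Cyp4f13, Cyp4f16, Gstm1, Gstp1 and Gstt3, and 5 of them had their lowest value in AA replicate 2.

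**Figure D4:**
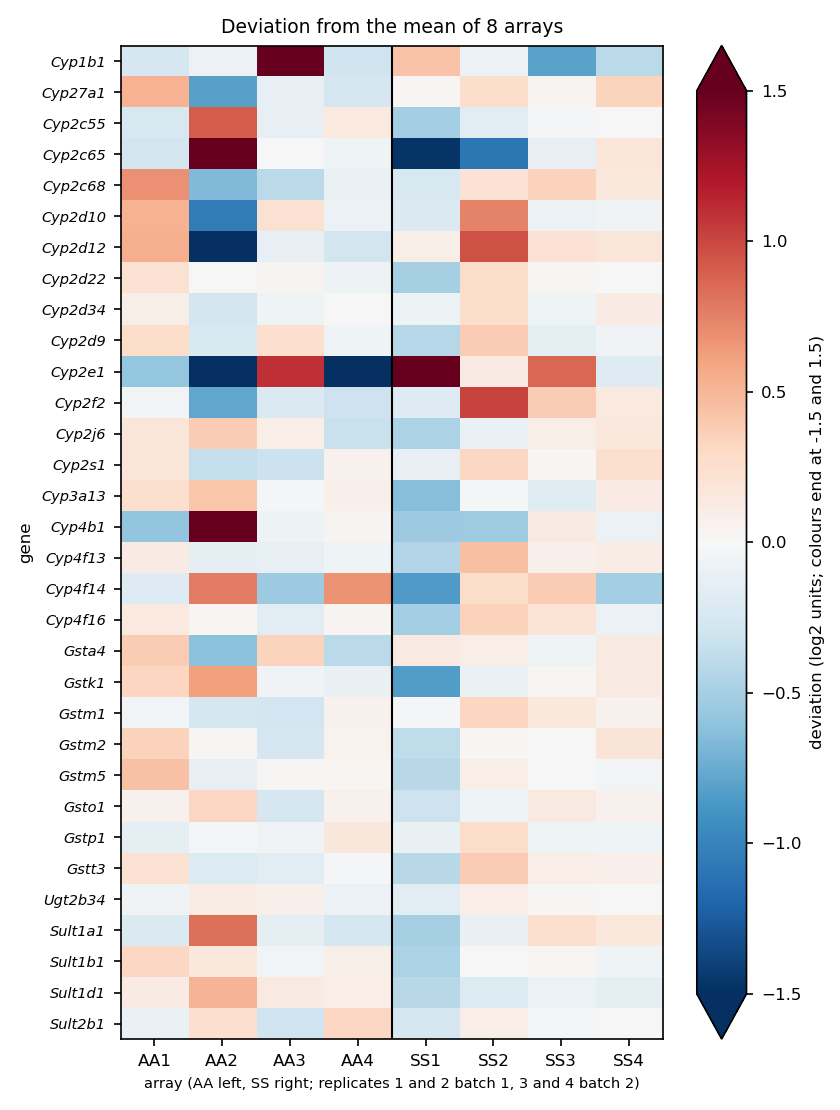
Deviation of each array from the mean of 8 arrays (log2 units, red above and blue below) for the 28 well expressed genes and the 4 dimmer ones with a range over 2, with AA arrays left of the line and SS arrays right of it. AA replicate 2 is high for Cyp2c55, Cyp2c65, Cyp4b1 and Sult1a1 and low for Cyp2d10, Cyp2d12, Cyp2f2 and Cyp27a1, and SS replicate 1 is blue in most rows.

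The regulators of these enzymes differed little between group means. Of 18 measured receptors and regulators 5 were higher and 13 lower in AA, and their differences had a median of -0.04. None, 0 of 18, had an unadjusted limma p under 0.05. Of all genes, 52.2% were higher in AA and 7.97% had that p in either direction. Ahr, the aryl hydrocarbon receptor, averaged 7.83 ± 0.14 (SD, n = 4) in AA, against 7.96 ± 0.23 (SD, n = 4) in SS, and its repressor Ahrr 4.78 ± 0.10 (SD, n = 4) in AA, against 4.73 ± 0.12 (SD, n = 4) in SS. Nr1i2, the pregnane X receptor, averaged 9.33 ± 0.22 (SD, n = 4) in AA, against 9.46 ± 0.21 (SD, n = 4) in SS. Nfe2l2, which encodes NRF2, averaged 9.77 ± 0.18 (SD, n = 4) in AA, against 9.94 ± 0.30 (SD, n = 4) in SS. The smallest p of this list belonged to Tiparp, a target of the aryl hydrocarbon receptor, at 0.26 ± 0.12 (SE), followed by Ppara, a receptor of fatty acids, at -0.32 ± 0.18 (SE).

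Cyp1b1, another target of the aryl hydrocarbon receptor, was picked out for its range over the arrays. It stood at 5.52, 5.69, 7.27 and 5.47 in AA replicates 1 to 4, against 6.20, 5.68, 4.97 and 5.37 in SS replicates 1 to 4. AA replicate 3 was the high array, and without it the difference of 0.43 ± 0.41 (SE) became -0.08. Mesothelium and macrophage marker lists were also highest in AA replicate 3, with means of 7.43 to 8.78 and 7.55 to 8.74 in the AA arrays and 6.50 to 7.85 and 7.15 to 8.05 in the SS arrays. All 8 genes of each were higher in AA, of which 4 and 3 had an unadjusted limma p under 0.05. Of all genes, 52.2% were higher in AA and 5.67% were higher at that p. The part of these markers in the Cyp1b1 value was not tested. In the authors' deposited table a set of genes with an aryl hydrocarbon receptor motif was listed as raised in AA. It had a normalized enrichment score (NES) of 1.72, a q-value of 0.009 and 143 genes. That table names no genes, and its title names 3 days after appendectomy.

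Enzymes and transporters that work with the members were read from 4 lists. Genes that supply electrons, sulfate, glucuronic acid or glutathione differed by a median of 0.11, and 13 of 14 were higher. Batch 1 gave a median of 0.22 and batch 2 one of 0.020, and 7 of the 14 had the same sign in both. The 1 with an unadjusted limma p under 0.05 was Cyb5r3, a cytochrome b5 reductase, with all AA arrays above all SS arrays. It averaged 9.35 ± 0.18 (SD, n = 4) in AA, against 9.03 ± 0.09 (SD, n = 4) in SS. Of all genes, 52.2% were higher in AA, 5.67% were higher at that p and 4.33% separated in this direction. Of 15 NRF2 target genes 12 were higher (median difference 0.10, with 0.13 in batch 1 and -0.0086 in batch 2), and 5 had the same sign in both batches. Hmox1, haem oxygenase, was the 1 with an unadjusted p under 0.05 at 0.45 ± 0.17 (SE). Gclm, a subunit of the enzyme that limits glutathione synthesis and a member of both lists, had the next smallest p in each, at 0.31 ± 0.16 (SE).

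Among 30 other enzymes of drug metabolism 17 were higher and 13 lower in AA. At an unadjusted p under 0.05 limma gave 4 higher and 1 lower, beside 5.67% and 2.29% of all genes. Ces2a, an intestinal carboxylesterase, stood at 10.50, 11.75, 10.50 and 10.84 in AA replicates 1 to 4, against 9.70, 9.89, 10.31 and 10.19 in SS replicates 1 to 4. The groups did not overlap, and AA replicate 2 was again highest. The Ces2a difference was 0.88 ± 0.28 (SE; limma adjusted p = 0.463). Ephx2, which hydrolyses fatty acid epoxides, averaged 7.48 ± 0.07 (SD, n = 4) in AA, against 7.73 ± 0.03 (SD, n = 4) in SS, with all AA arrays below all SS arrays. Its difference was -0.24 ± 0.08 (SE; limma adjusted p = 0.488). Of the 30, 2 had all AA arrays above all SS arrays and 1 had all below, beside 4.33% and 1.84% of all genes.

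Of 10 efflux transporters 6 were higher, and Abcg2, which exports conjugates and urate, had the smallest p, at 0.60 ± 0.23 (SE), with 11.37 in AA replicate 2. Abcc5 followed at 0.26 ± 0.12 (SE). Abcb1a, the drug pump P-glycoprotein, averaged 12.87 over all arrays and differed by 0.0019 ± 0.091 (SE). For comparison, all 8 fibroblast markers were higher in AA, by a median difference of 0.63, and 7 of them had an unadjusted limma p under 0.05 and 5 had groups that did not overlap. Smooth muscle markers were higher in 10 of 10, with a median difference of 0.40 and 6 at that p. Of all genes, 52.2% were higher in AA, 5.67% were higher at that p and 4.33% had all AA arrays above all SS arrays. Squamous, goblet cell and hepatocyte markers were higher in 5 of 8, 5 of 7 and 3 of 6. The part of tissue make-up in the values of these enzymes was not tested.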

How the data were processed

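The authors deposited log2 expression values, 1 per probe set and array, made with RMA (robust multi-array average), Affymetrix Power Tools and Partek 6.4, per the submitters' processing notes. The sources used here state no build, annotation release or filter. The authors also deposited normalized enrichment scores (NES), p-values and q-values of gene sets and the number of genes in each, per the file headers. No read depth exists for arrays; their number limits the precision.

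Probe sets were named by the platform annotation, and 18154 of 23442 had 1 gene symbol. Differences were fitted to these in R 4.3.3 with limma 3.58.1 (lmFit, eBayes; batch and group; 5 residual degrees of freedom), with Benjamini-Hochberg adjustment and no filter, and the fit was tested on simulated data. Background shares count each of 16645 genes once. Members, gene lists and naming rules were chosen with earlier results of these data known. Named were, in each family, the 4 members with the smallest p and the 4 with the highest mean, any with groups that did not overlap, and 4 regulators and the 2 smallest p of each list; 4 members were added for a range over 2 log2 units, after their values were seen, as were the other members given with values.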

Additional observations from a re-analysis of the deposited data

Results flagged for a closer look

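In each group of 4 arrays, the 84 members were checked for a single array far from the other 3, by Dixon's ratio of gap to range at the 95% level. In 168 such groups chance gives about 1 in 20, and 12 were found. The same share was not counted over all genes, so the 12 cannot be called particular to these members. Because batch means were removed from the deposited values, 1 extreme array also moves the other arrays of its batch, so these checks are not independent.

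In the AA group, AA replicate 2 stood apart at 9.75 for Cyp2c65 (the others 6.64 to 6.92), at 11.93 for Sult1d1 (11.52 to 11.55), at 9.96 for Sult1a1 (8.88 to 8.997) and, on the low side, at 6.25 for Gsta3 (6.93 to 7.04). AA replicate 3 did so at 7.27 for Cyp1b1 (5.47 to 5.69).

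In the SS group, SS replicate 2 stood apart at 10.43 for Cyp2d12 (9.57 to 9.69), at 9.67 for Cyp2d10 (8.71 to 8.88) and at 11.11 for Gstp1 (10.72 to 10.77). SS replicate 1 was low at 10.41 for Sult1b1 (10.82 to 10.90), at 7.73 for Cyp39a1 (8.11 to 8.19) and at 7.57 for Gstm4 (7.94 to 8.004). SS replicate 3 stood at 4.07 for Ugt2b36 (3.84 to 3.85).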

How the results depend on the processing

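At an adjusted p under 0.05 the count of members was 0 in all 20 alternative settings. Of the 29 members named by the rule or for their range, 10 had a value in all 20 settings and kept their sign, and 8 did so in 19, since the filter on level removes them. At an unadjusted limma p under 0.05 the count of lower members was 2 in the fit reported. It was 6 with no batch term (7.14% of members, against 3.67% of all genes). With only genes above the median level it was 1 (2.5% of the 40 members left, against 2.35% of genes left). Quantile normalization and median centring each gave 4 (4.76%, against 3.81% and 2.49% of all genes). Array weights gave 15 (17.9%, against 7.14%) and batch 2 alone gave 14 (16.7%, against 6.88%). Without AA replicate 3 and SS replicate 1, a setting chosen after the data were seen, the count was 7 (8.33%, against 4.07%). The fit with array weights stopped before convergence, gave SS replicate 2 a weight of 11.5 and called 125 genes of all at the adjusted p. With single arrays left out the count of lower members ran from 0, without AA replicate 2, to 9, without SS replicate 1 (10.7% of members, against 5.58% of all genes). The count of higher members, 1 as reported, was 6 in batch 1 alone (7.14% of members, against 4.14% of all genes) and 0 in batch 2 alone (against 5.59%). With arrays left out it was 1 to 3, the most without AA replicate 3 (3.57%, against 5.81%). The Cyp median was -0.12 with genes above the median level only, where fewer genes remain, and ran from -0.063 to -0.029 with arrays left out. The Ugt median then ran from -0.15, without AA replicate 2, to 0.011, and the Sult median from 0.073 to 0.22, and 0.37 in batch 1 alone. Well expressed members numbered 9 above the 90th percentile. With the replicate number as a replicate block the counts were 1 higher and 2 lower (Cyp2e1 and Cyp2f2). The deviations of same-numbered arrays from their group means had correlations of -0.32, -0.09, -0.44 and -0.22. Equal batch means push such correlations within a batch towards negative values, so this check cannot decide whether samples were paired. The numbers were not taken to pair samples. Other causes of these shifts were not tested, and 4 arrays a group and dim probe sets limit the precision.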
